A study of Mus musculus with 8 samples.

Results

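The mouse gene Snd1 held 34 of the 26244 Pax6 sites in the authors' deposited table. Its sites are those whose annotated gene symbol was Snd1. The gene was chosen by measured values, namely its number of sites and the concentrations of both groups at them, so its site number, concentrations and calls are given here as a description, with no test run on them. Binding of the transcription factor Pax6 was measured with sequencing after chromatin immunoprecipitation (ChIP-seq) in alphaTC1, an established line from a mouse glucagon-producing pancreatic tumour. The cells carried antisense oligonucleotides of a scrambled sequence, here control knockdown (KD), or ones directed at the long non-coding RNA Paupar, here Paupar KD, and the question was how Pax6 binding differed between them. Each group had 2 Pax6 ChIP libraries, described as biological duplicates, and input libraries that were not analysed here. No RNA was measured by this assay, so neither the depletion of Paupar nor the identity of the cells could be checked.

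Snd1 encodes a protein with staphylococcal nuclease-like domains and a Tudor domain, also called Tudor-SN. It is known as a coactivator of transcription factors such as STAT5 and STAT6, as a component of the RNA-induced silencing complex and as a factor in RNA processing. Pax6 binds DNA through a paired domain and a homeodomain and is needed for glucagon-producing alpha cells. Paupar is transcribed next to the Pax6 gene.

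Snd1 lies on the plus strand of mouse chromosome 6, from 28480337 to 28935162, a span of 454.8 kb in RefSeq on GRCm38.p6, the assembly that mm10 represents. Its annotated start carried no Pax6 site, and the nearest summit of any library lay at -28.8 kb from it, on the side of Pax4. The bases just before that start are shown because they are the promoter that the listed sites do not cover (RefSeq, GRCm38.p6, chr6:28480098-28480336, plus strand, with GC boxes in capitals).
Snd1 promoter: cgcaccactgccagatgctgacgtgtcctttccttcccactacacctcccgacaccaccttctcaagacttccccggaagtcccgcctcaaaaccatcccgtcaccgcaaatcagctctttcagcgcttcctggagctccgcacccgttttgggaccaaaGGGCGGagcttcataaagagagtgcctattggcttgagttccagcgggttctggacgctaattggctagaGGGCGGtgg
This window held 2 matches to the GC box GGGCGG, searched on both strands. The same window held at least 2 matches in 15.3% of 32851 RefSeq promoters and at least 1 in 31.2%. Letters of the Pax6 paired-domain core, TTCACGC and the shorter TCACGC inside it, gave 0 matches on either strand, and they occurred in 0.983% and 5.24% of promoters. The homeodomain letters TAATTA also gave 0 matches and occurred in 4.77% of promoters. The window had a GC content of 57.7%, against a median of 52.3%, and 14 CpG pairs, against a median of 5.

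The first Snd1 site lay 51.1 kb downstream of the start, and from there sites continued to the end of the gene. Of the 34 sites, 33 lay inside the span and 1 lay 14.2 kb beyond its end. Another 3 sites inside the span were annotated to Lrrc4, a gene for a leucine-rich repeat synaptic adhesion protein that sits within Snd1, so the span held 36 sites. Neighbouring Snd1 sites were 1.77 to 46.02 kb apart, with a median gap of 10.56 kb, and 10 of the 33 gaps were under 5 kb. The longest gap contained the 3 Lrrc4 sites, and with them counted the longest was 29.52 kb.

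Site number was high for a gene of this length. By annotated symbol, 8 of 10195 genes had more sites than Snd1 and 2 others, Gse1 and Wdr25, had as many. The genes with more were Wwox (50 sites), Hdac4 (45), Msi2 (37), Cdh13, Maml3, Pde10a and Sh3bp4 (36 each) and Tox3 (35). Snd1 held 7.92 sites per 100 kb of its span, the 17th highest density among 989 protein-coding genes of at least 200 kb. The median of those genes was 0.467 sites per 100 kb, 316 of them had no site, and the highest density was 13.72, at Msi2, which encodes an RNA-binding protein.

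**Figure D1:**
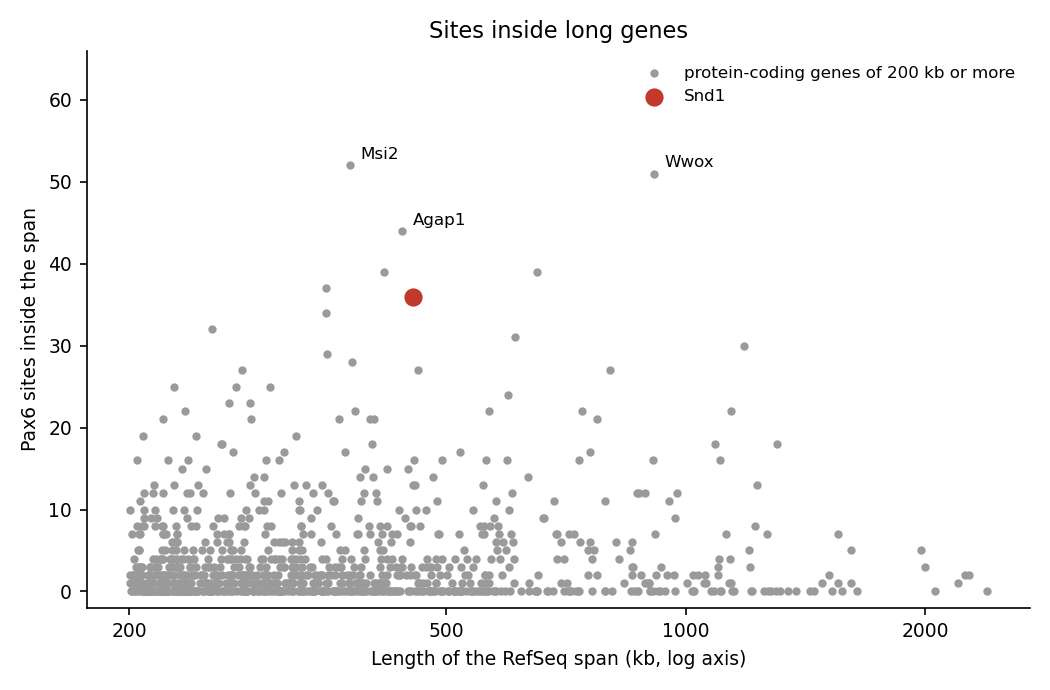
Number of Pax6 sites inside the RefSeq span (vertical axis) against the length of the span in kb (log axis) for 989 protein-coding genes of at least 200 kb; each grey point is a gene and the red point is Snd1. Snd1, with 36 sites in 454.8 kb, ranks 7th by sites in the span, and Msi2 holds 52 sites in a shorter span.

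Most Snd1 sites were intronic. Introns held 28 of 34 sites (82.4%), against 36.8% of all sites in the authors' deposited table. The 2 shares are not a like comparison, because 28.9% of all sites were distal intergenic, beside 2.94% of Snd1 sites. By intron there was 1 site in intron 8, 5 in intron 9, 2 in intron 10, 1 in intron 11, 2 in intron 12, 7 in intron 14 and 6 in intron 15 of the transcript ENSMUST00000164915.7, and 4 in intron 16 of ENSMUST00000167201.1. No site was annotated to an intron before intron 8. Intron lengths were not used, so these counts do not show how densely each intron was occupied, and the 6 sites leave out the 3 Lrrc4 sites in intron 15. The 3 sites labelled as promoters lay 224.9, 226.8 and 401.7 kb downstream of the RefSeq start, beside starts of shorter transcripts that begin inside the gene. The site labelled as 3′ UTR, 51.1 kb from the start, and the site labelled as exon, at 316.3 kb, also lay within the gene body; the exon belongs to another transcript, ENSMUST00000194243.1.

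The authors' concentration of a site is a log2 mean over the libraries of a group, and the table gives no value per library. A log2 change here is Paupar KD minus control KD, and a site is called where the authors' false discovery rate (FDR) is below 0.05. Across the Snd1 rows of the authors' deposited table, concentrations ran from -0.01 to 8.17 in control KD (median 3.675) and from 2.91 to 7.48 in Paupar KD (median 3.95). The authors' deposited table as a whole has medians of 4.34 and 4.48, both above those of Snd1. A few strong sites stood among many weak ones, since 3 Snd1 sites had mean concentrations above 7 and 26 had mean concentrations below 5.

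**Figure D2:**
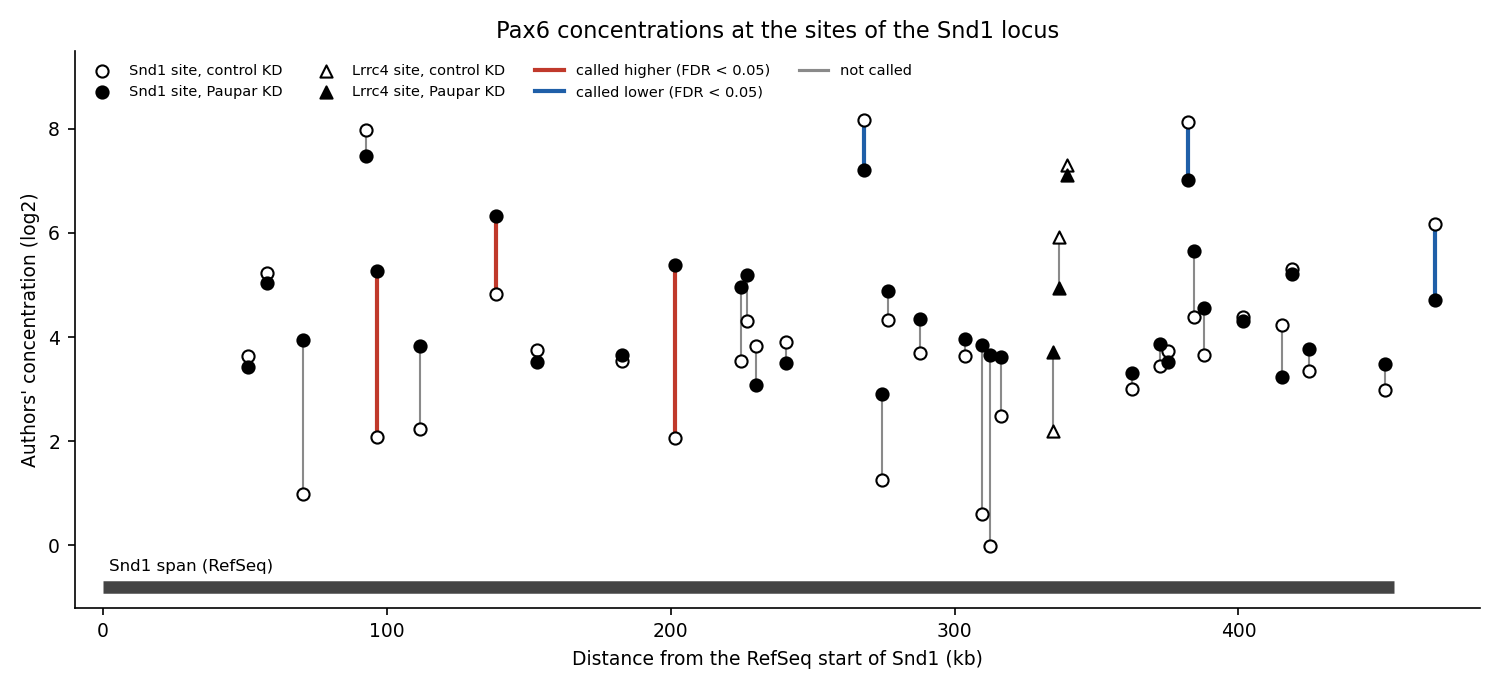
Authors' log2 concentration of Pax6 (vertical axis) at each site by its distance from the RefSeq start of Snd1 in kb; open symbols are control KD, filled symbols are Paupar KD, circles are Snd1 sites, triangles are Lrrc4 sites, and the line joining a pair is coloured where the site was called. Symbols are group means without error bars because the table gives no value per library. The 3 Snd1 sites with mean concentrations above 7 lie at 92.8, 268.2 and 382.2 kb, with the filled symbol below the open one at each. The Lrrc4 site at 339.5 kb also has a mean above 7 (7.21), with its 2 symbols close together at 7.3 and 7.12.

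Paupar KD was followed by a higher signal at 3 Snd1 sites and a lower signal at 3 others. Higher calls therefore made up 8.82% of Snd1 sites, beside 3.26% of all sites, and lower calls 8.82%, beside 0.846%, in the authors' deposited table. Because the gene was picked with these calls in view, nothing is read from those shares. With an FDR below 0.1 the called sites were the same 6, beside 4.99% higher, 1.8% lower and 6.79% in either direction over all sites of the authors' deposited table. With the authors' unadjusted p below 0.05, 8 Snd1 sites (23.5%) were higher, beside 10.7% of all sites, and 4 (11.8%) lower, beside 6.67%. In all, 12 (35.3%) passed this rule, beside 17.3%. Counted by symbol, 18 genes had calls in both directions. Snd1 was the one gene with at least 3 of each, and no other gene had 6 or more called sites. These counts include a lower Snd1 site 14.2 kb past the end of the gene. Inside the span 3 higher and 2 lower sites were called, and nothing is read from the ranking. Among the other genes with both directions were Foxp1 and Slc24a2, each with 4 higher and 1 lower, and Rybp, with 1 higher and 2 lower.

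The higher sites lay in introns 9 and 11, between 96.6 and 201.6 kb from the start. For the site at 201.6 kb, in intron 11 (chromosome 6, 28681934 to 28682033, mm10), the authors' deposited table gives 2.07 under control KD against 5.39 under Paupar KD, a log2 change of 3.33 with an FDR of 0.00214. Both Paupar KD libraries had a peak summit there, with scores of 21.6 and 7.72, and neither control KD library had one. For the site at 96.6 kb, in intron 9 (28576908 to 28577007), the authors' deposited table gives 2.09 against 5.27, a log2 change of 3.18 with an FDR of 0.00659. Its summits, with scores of 16.2 and 10.2, again came from the Paupar KD libraries only. Summits and concentrations come from the same libraries, so at both sites the summits are no separate support for the rise. Such sites may also be listed only through the group where they are high. The remaining higher site, at 138.6 kb in intron 9 (28618897 to 28618996), had a summit in every library. Its row of the authors' deposited table reads 4.83 against 6.32, a log2 change of 1.49 with an FDR of 0.0198. Summit scores there were 14.7 and 5.89 with control KD, and 51.7 and 31.3 with Paupar KD. Within their own lists these summits ranked 5453 of 14311 and 7282 of 9983 in control KD, and 1030 of 15611 and 2267 of 17942 in Paupar KD. Scores and ranks place a summit within its list, and since the lists differ in length they show no change between libraries.

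The lower sites lay from 268.2 kb onward and included the strongest Snd1 site. That site, in intron 14 (28748453 to 28748552), went from 8.17 to 7.21 in the authors' deposited table, a log2 change of -0.96 with an FDR of 0.00739. Its summit scores were 165 and 145 in control KD and 94.4 and 74.0 in Paupar KD, which ranked 163 and 69 in the control KD lists and 370 and 650 in the Paupar KD lists. A site in intron 15 (28862447 to 28862546), 382.2 kb from the start, went from 8.14 to 7.02 in the authors' deposited table, a log2 change of -1.12 with an FDR of 0.00235. All libraries had a summit there, ranked 335 and 380 in control KD and 788 and 934 in Paupar KD. Both sites were thus among the higher-ranked summits of each of the 4 lists. The last lower site lay past the gene, 469.1 kb from the start (28949347 to 28949446), and its row of the authors' deposited table reads 6.17 against 4.72, a log2 change of -1.45 with an FDR of 0.0244.

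At that last site the summit lists and the concentrations pointed in different directions. Its only summit within 250 bp came from Paupar KD replicate 1, with a score of 9.61, although the concentration was higher in control KD. Of the 222 sites called lower over the whole table, 9 (4.05%) had no control KD summit within 250 bp, and each of those 9 had a Paupar KD summit. Counted over the gene span instead of by symbol, this site drops out, and 5 called sites are left, 3 higher and 2 lower.

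Called sites divided along the locus. All 3 higher sites lay before the middle of the span, at 227.4 kb. All 3 lower sites lay after it, 1 of them past the end of the gene. Large uncalled rises also lay after the middle. The first lay at 309.6 kb (3.23, FDR 0.176), where control KD was low, at 0.61, so the size is poorly defined. The next lay at 312.5 kb, where control KD was at the floor (FDR 0.129). From the authors' deposited table, the 12 Snd1 sites before the middle had a median log2 change of 1.155, with 8 above 0, and the 22 sites after it 0.375, with 13 above 0. The split at the middle was chosen after the values were seen and was not tested. Sites with changes of opposite sign also stood close together, though in neither pair described here were both sites called. In intron 9 the strongest site of that intron (28573114 to 28573213), with 7.98 against 7.48 (FDR 0.218) per the authors' deposited table, lay 3.69 kb from the site that went from 2.09 to 5.27. In intron 15, the lower site at 382.2 kb was followed 2.28 kb on by a site (28864827 to 28864926) with 4.39 against 5.66 (FDR 0.128) per the authors' deposited table.

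**Figure D3:**
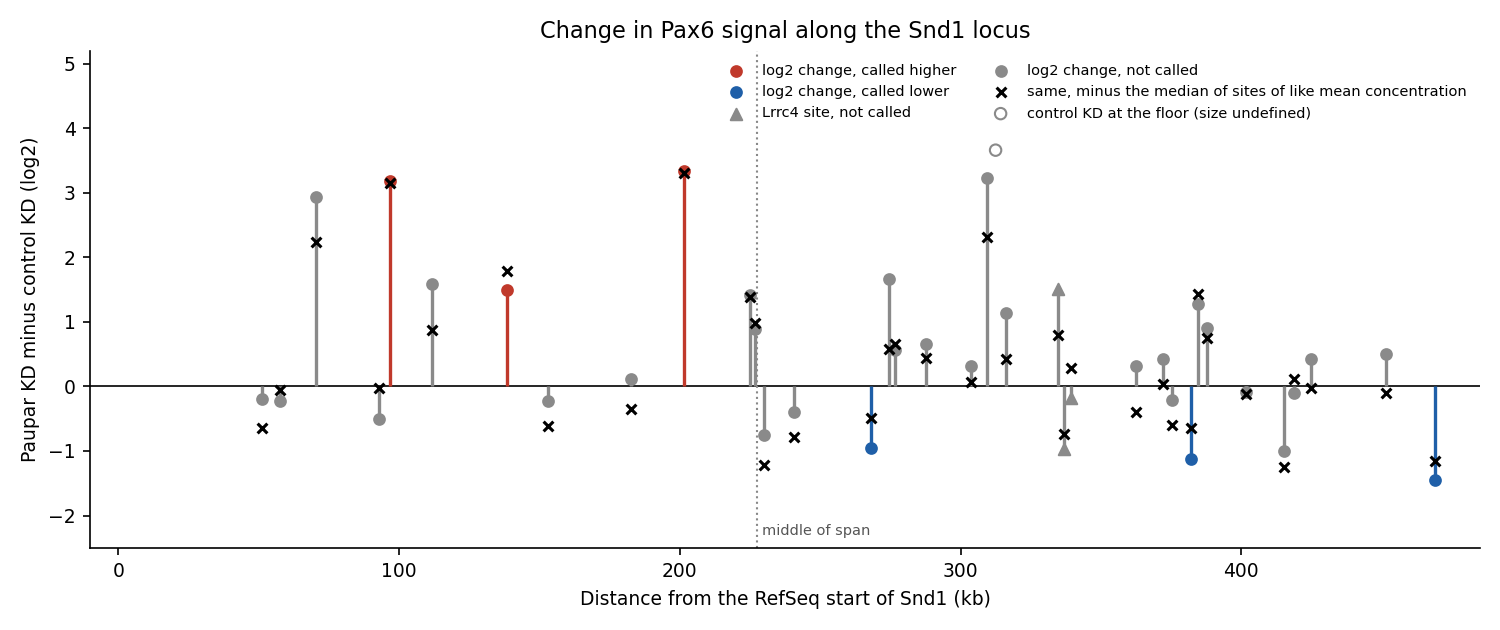
Log2 change in Pax6 concentration, Paupar KD minus control KD (vertical axis), by distance from the RefSeq start of Snd1 in kb; red and blue mark sites called higher and lower, triangles Lrrc4 sites, crosses the change minus the median of sites of like mean concentration, and the open circle a site whose control KD value was at the floor. The 3 red sites lie left of the dotted line at the middle of the span and the 3 blue sites right of it.

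The direction at Snd1 sites went with their strength, as it did over the whole table; both measures come from the same libraries. Of the 8 Snd1 sites with a mean concentration of 5 or more, 6 had a change below 0, and of the 26 weaker sites 19 had a change above 0, in the authors' deposited table. Over all sites 73.6% of those at 5 or more were below 0 and 60.1% of the weaker ones above 0, in the authors' deposited table. Of the 26 weaker Snd1 sites, 14 had a summit in Paupar KD alone and 6 in control KD alone. Over all weaker sites these shares were 48.3% and 22.3%. A weak site may be listed through the group where its signal is high, so its direction is not independent of its listing. The part of this in the signs was not tested. From the authors' deposited table, the median change of the 34 sites was 0.43, against -0.03 over all sites. Measured against sites of like mean concentration (20 bins), the median was 0.055. Among the Snd1 sites with summits in at least 2 libraries the median was -0.09, the opposite sign.

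The called sites were chosen on the same concentrations, so their values after this centring are a description. Relative to sites of like mean concentration, the higher sites changed by 3.30 at 201.6 kb, 3.15 at 96.6 kb and 1.79 at 138.6 kb on the log2 scale. The lower sites changed by -0.49 at 268.2 kb, -0.65 at 382.2 kb and -1.15 at 469.1 kb, against -0.96, -1.12 and -1.45 before centring. The strong uncalled site at 92.8 kb, with a deposited change of -0.50, came to -0.03.

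**Figure D4:**
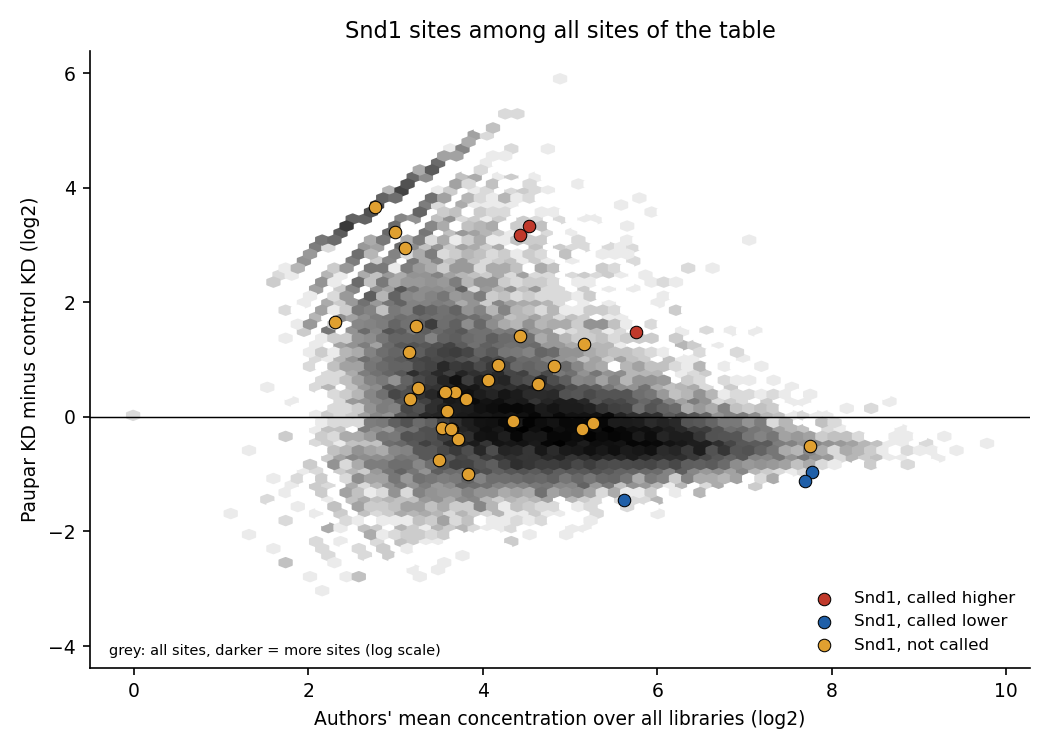
Log2 change, Paupar KD minus control KD (vertical axis), against the authors' log2 mean concentration over all libraries (horizontal axis); grey cells are the 26244 sites of the table, darker where more sites fall on a log scale, and coloured points are the 34 Snd1 sites. Snd1 points follow the downward slope of the grey cloud, with the 3 higher sites above its dark centre and the lower site with a mean concentration of 5.62 below it.

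The remaining 28 Snd1 sites were not called. At 2 of the 7 sites in intron 14 the control KD value was below 1 and the Paupar KD value was below the Snd1 median of 3.95. The site at 309.6 kb (28789888 to 28789987) had 0.61 against 3.84 (FDR 0.176) per the authors' deposited table. The authors' deposited table lists the next site, at 312.5 kb (28792833 to 28792932), at the floor under control KD (-0.01) against 3.65 under Paupar KD, with an FDR of 0.129. Of the 4 libraries, Paupar KD replicate 1 was the one with a summit at either site. A site of the same kind in intron 9, at 70.5 kb (28550810 to 28550909), had 0.99 against 3.94 (FDR 0.169) per the authors' deposited table, and its only summit also came from Paupar KD replicate 1. The weakest Snd1 site, at 274.4 kb (28754674 to 28754773), had 1.26 and 2.91 in the authors' deposited table; its deposited FDR was 1 at p = 0.23, which places it outside the authors' adjustment. In the other direction, the largest uncalled difference was at 415.2 kb in intron 16 (28895485 to 28895584), with 4.24 against 3.24 (FDR 0.555) per the authors' deposited table.

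At several sites the 2 concentrations lay close together. The site at 401.7 kb (28881989 to 28882088) had 4.38 against 4.30 (FDR 0.967), and that at 418.7 kb (28898991 to 28899090) had 5.30 against 5.21 (FDR 0.948) per the authors' deposited table. The second of these nevertheless had summits in both Paupar KD libraries, with scores of 9.12 and 9.73, and in no control KD library. A site in intron 8, at 57.7 kb (28537970 to 28538069), had 5.24 against 5.03 (FDR 0.875) per the authors' deposited table and a summit in every library. Intervals for these differences could not be computed from group means, so equal binding is not shown. The 16 Snd1 sites whose concentrations are not printed one by one had log2 changes of -0.75 to 1.58 in the authors' deposited table, with mean concentrations of 3.15 to 4.63 and FDRs of 0.485 to 0.968; 11 of these changes were above 0.

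Summits were then counted at each site, library by library. Within 250 bp of the middle of a site, control KD replicates 1 and 2 had a summit at 16 and 7 of the 34 Snd1 sites, and Paupar KD replicates 1 and 2 at 21 and 17. Sites supported in both groups numbered 11, in control KD alone 6, in Paupar KD alone 16, and 1 site, at 451.5 kb, had no summit. The shares were 32.4%, 17.6%, 47.1% and 2.94%, beside 42.9%, 15.8%, 37.8% and 3.56% over all sites. A summit in all 4 libraries was found at 6 Snd1 sites (17.6%), beside 20% of all sites, and a summit in 1 library alone at 19 (55.9%), beside 43.9%. These counts leaned on single libraries: without control KD replicate 1 the sites in both groups dropped to 6 and those in control KD alone to 1, and without Paupar KD replicate 1 those in Paupar KD alone dropped to 7. Sites with no summit numbered 6 and 2 without control KD replicates 1 and 2, and 10 and 5 without Paupar KD replicates 1 and 2. The lists also differ in length over the genome, with 14311, 9983, 15611 and 17942 summits, and the part of list length in these counts was not tested.

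**Figure D5:**
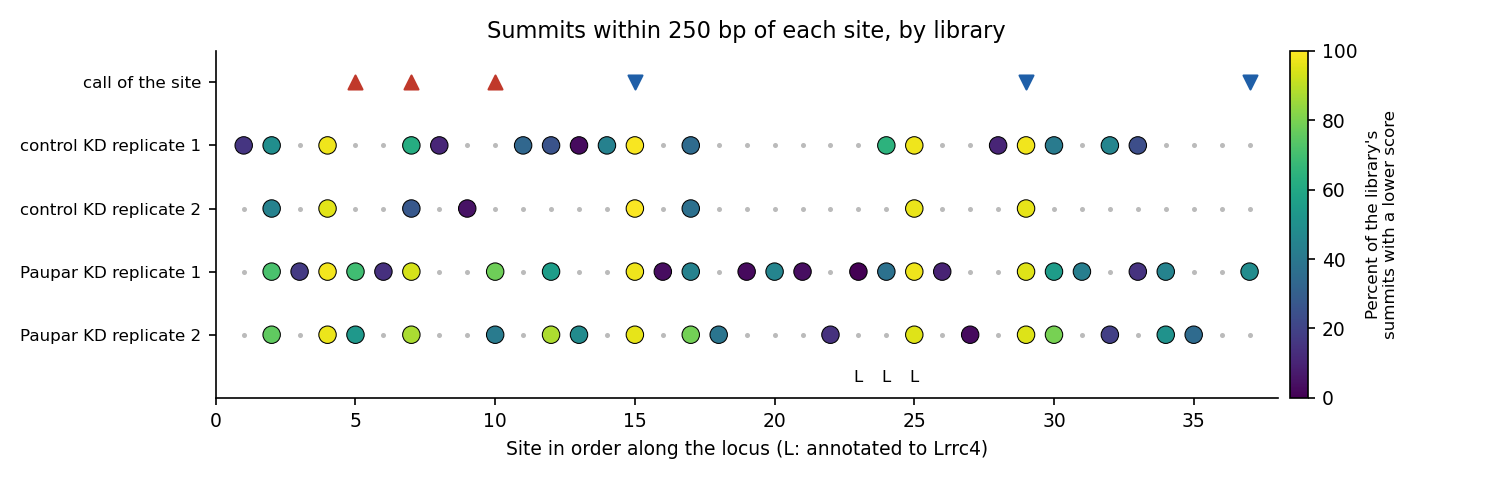
Summits within 250 bp of each of the 37 sites of the locus, in order along the chromosome (horizontal axis), for the 4 Pax6 ChIP libraries (rows); a filled circle is a summit, coloured by the percent of summits in the same library with a lower score, a small dot is no summit, and triangles in the top row mark sites called higher (up) or lower (down). Columns filled in all 4 rows are the 6 Snd1 sites and the 1 Lrrc4 site with a summit in every library, and the outer upward triangles stand over summits of the Paupar KD rows only.

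Where all libraries had a summit, its position was compared between them. The 4 summits lay within 10 bp of each other at 92.8 kb, 37 bp at 268.2 kb, 56 bp at 57.7 kb, 66 bp at 138.6 kb and 85 bp at 382.2 kb, and they spread over 183 bp at 276.5 kb. At 415.2 kb the matched summits were at 28895586 in control KD replicate 1 and at 28895775 in Paupar KD replicate 1. At the site labelled promoter at 224.9 kb (28705235 to 28705334), with 3.54 against 4.96 (FDR 0.218) per the authors' deposited table, the matched summit was at 28705418 in control KD replicate 1. The Paupar KD summits of that region lay at 28704954 and 28704940, which is 330.5 and 344.5 bp from the middle of the window and 45 and 31 bp from the listed start of the transcript ENSMUST00000163772.1, at 28704909. They ranked 1832 of 15611 and 2120 of 17942 in their lists, with scores of 35.1 and 32.8. Both lay outside the 100 bp window whose concentrations the table gives. By the 250 bp rule the site at 224.9 kb was therefore counted among the 6 Snd1 sites supported in control KD alone. The neighbouring site labelled promoter, at 226.8 kb (28707106 to 28707205), had 4.31 against 5.19 (FDR 0.448) per the authors' deposited table, with summits in control KD replicate 1 and both Paupar KD libraries. A summit of control KD replicate 2, at 28707425, lay 269.5 bp from its middle and was not matched. In all, 7 summits from the start of the span to the last Snd1 site lay over 250 bp from the middle of every site, 6 of them from Paupar KD libraries.

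The 3 Lrrc4 sites in intron 15 of Snd1 were not called. The strongest, 339.5 kb from the Snd1 start (28819833 to 28819932), had 7.30 against 7.12 (FDR 0.789) per the authors' deposited table, with a summit in every library. The others had 5.93 against 4.95 (FDR 0.194) and 2.20 against 3.71 (FDR 0.479) per the authors' deposited table. The strong site at 339.5 kb thus had group means close together and was not called, which does not show equal binding. The strong site at 92.8 kb was also not called, with 7.98 against 7.48 (FDR 0.218) per the authors' deposited table. Those at 268.2 and 382.2 kb were called lower, and the difference between these strong sites was not tested.

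Genes around Snd1 carried sites as well. Within 200 kb of the span, 14 sites were annotated to 5 other genes, Pax4, Lrrc4, Mir129-1, Lep and Rbm28, and 1 was called, beside the 4.1% called over all sites in either direction. Pax4, which encodes an islet paired-homeodomain factor and lies upstream of Snd1, had a site 1.96 kb before its start (28451310 to 28451409) with 5.19 against 4.68 (FDR 0.673) per the authors' deposited table. Downstream, the strongest site annotated to the microRNA gene Mir129-1 (28981308 to 28981407) had 8.35 against 7.98 (FDR 0.374) per the authors' deposited table, above every Snd1 site. A further Mir129-1 site (29036970 to 29037069) was the called one, with 4.43 against 5.94 (FDR 0.0387) per the authors' deposited table. Lep, which encodes leptin, had a site labelled 3′ UTR (29073861 to 29073960) with 5.16 against 3.69 (FDR 0.15) per the authors' deposited table. Fscn3, Arf5, Gcc1, Zfp800 and Grm8 had no listed site. Impdh1, with 3 sites, and Hilpda, with 1, had none called.

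Genes whose products are linked to the Snd1 protein were looked up next. Of 13 such genes, 9 had 27 sites, of which 3 were higher, beside 3.26% of all sites, and 0 lower, beside 0.846%. The median of their log2 changes in the authors' deposited table was -0.09. The list was chosen with earlier results of these data known, so nothing is read from these counts. The 3 higher sites all belonged to Prlr, the prolactin receptor gene, whose promoter (chromosome 15, 10223836 to 10223935) had 3.11 against 5.31 (FDR 0.0303) per the authors' deposited table. Its others, 101.34 kb from the listed start and in an intron, had 2.75 against 5.21 (FDR 0.026) and 3.77 against 5.65 (FDR 0.0323) per the authors' deposited table. Stat5b, a transcription factor gene downstream of prolactin signalling, had 4 sites, and Ago2, an Argonaute gene of the silencing complex, had 6, with 0 called at either. Stat5a, Stat6, G3bp1, Ago1, Adar and Pim1 had listed sites without a call, and Mtdh, Crebbp, Ep300 and Myb had none listed.

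By median concentrations, the genes most like Snd1 among 539 genes with at least 8 sites were Rasgef1b, Sh3bp4, Ppm1l, Spdef and Tspan9. Their Euclidean distances from Snd1, over the medians of control KD and Paupar KD, were 0.018 to 0.059 on the log2 scale. These 5 genes had 8 to 36 sites each, of which 0 were called, beside the 4.1% called over all sites, and nothing is read from that count.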

How the data were processed

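Pax6 ChIP-seq was analysed in 4 of the 8 libraries of the series. Per the submitters' processing notes, the authors used Bowtie2, MACS2, DiffBind and ChIPseeker on mm10; the sources used here do not give versions, the normalization or the use of input, and read depth is unknown. The authors' deposited table holds log2 concentrations per group, a log2 fold (turned here to Paupar KD minus control KD), and the authors' p-value and FDR for windows of 100 bp. Peak summits were called per library, as the names in each deposited list show, and assigned by the sample they were deposited under, since 1 control KD list carries another replicate number. The authors' summit score was read as −log10 of a q-value (lowest 2.0) and used within a list only.

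Sites with the symbol Snd1 were matched to summits within 250 bp of their middle and placed by RefSeq (GRCm38.p6). Concentrations at or below 0 were taken as the floor. Changes were centred on the median of all sites in 20 bins of mean concentration. No test was run: p-values and FDRs are the authors', from 2 libraries per group, and sites of 1 gene are not replicates. By their deposited p and FDR, 1010 of the 26244 sites were taken as outside the authors' adjustment. The steps were tested on simulated data (Python 3.11.15, pandas 2.3.3). The gene and the lists of neighbouring and linked genes were chosen with earlier results of these data known. Sites were named by rule (highest signal, called, largest changes, promoters); the others named were chosen after their values were seen. Sequence came from RefSeq promoter windows alone, and the sequence at the sites was not used here.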

Additional observations from a re-analysis of the deposited data

How the results depend on the processing

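At an FDR below 0.1 the same count of 6 Snd1 sites was called as at 0.05, 3 in each direction, and inside the gene span 5 were called. At an unadjusted p below 0.05 it was 12 (35.3%), of which 8 were higher and 4 lower, beside 17.3% of all sites. The median log2 change of 0.43 held without the site at the floor and inside the span (0.43 each) and was 0.46 when centred on all sites. It was 0.055 when centred on sites of like mean concentration and -0.09, of opposite sign, among sites with summits in at least 2 libraries; the cause was not tested. Sites with no summit numbered 8 when the summit had to lie within 100 bp, 0 within 500 bp and 13 with summit scores of 5 or more, where sites in Paupar KD alone fell to 9. Leaving out each library in turn gave 6 to 11 sites in both groups, 1 to 8 in control KD alone, 7 to 21 in Paupar KD alone and 2 to 10 with none. No paired analysis was possible because the deposited table holds group means and no value per library; for the same reason the calls were not refitted with a library left out. Read depth is unknown, so no interval was computed.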
